A study of Mus musculus with 11 samples.

Results

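Genes of sterol and fatty acid synthesis were examined in mouse back skin treated with imiquimod, comparing Trex2-/- (knockout, KO) with wild-type (WT) mice. The set holds 31 of the 38406 gene symbols in the deposited table, chosen by gene name. It has 18 genes of the sterol branch, 10 of the fatty acid branch and 3 regulators. Sc4mol is the table's older symbol for Msmo1. All 31 members had a mean of at least 10 normalized counts and were among the 13215 genes tested.

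Imiquimod activates the innate receptor TLR7, and repeated application to mouse skin gives a model of psoriasis-like inflammation. Trex2 encodes a DNA exonuclease made mainly in keratinocytes. Bulk RNA came from female C57BL/6 mice aged 8 to 10 weeks, 6 Trex2-/- (replicates 7 to 12) and 5 WT (replicates 2 to 6). Every mouse of both genotypes received 125 mg of 5% imiquimod cream a day for 4 days, and skin was taken 24 h after the last application. Skin without imiquimod was not analysed here.

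Cells make cholesterol from acetyl-CoA by the mevalonate pathway, whose isoprenoid units are joined to squalene, closed to lanosterol and then trimmed and reduced to cholesterol. Fatty acids are built from the same acetyl-CoA, then elongated and desaturated. The transcription factors SREBP1 (encoded by Srebf1) and SREBP2 (Srebf2) activate both branches, SREBP2 mainly the sterol and SREBP1 mainly the fatty acid genes. They are held in the endoplasmic reticulum by INSIG proteins and released through SCAP when sterols run low. In skin, keratinocytes use both products for the lipid layers of the epidermal barrier, and sebaceous glands and adipocytes use them for sebum and stored fat.

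The promoter windows of 7 members are shown because they carry, in different numbers, the short motifs that the members share. Of the 31 members 24 matched a window by symbol; Fdps, Fdft1, Sqle, Stard4, Scd1, Scd2 and Fads1 are named only. The windows come from RefSeq on GRCm38.p6, run 5′ to 3′ on the gene's strand and span 250 bases before to 50 bases after each annotated first base. Capitals mark CCAAT, the NF-Y box, on either strand (ATTGG when on the opposite strand), and any match to TCACNCCAC, a form of the sterol regulatory element. The Hmgcs1 window is chr13:119690101-119690400 on the plus strand, that of Lss chr10:76531355-76531654 on the plus strand, that of Cyp51 chr5:4104648-4104947 on the minus strand and that of Hsd17b7 chr1:169969156-169969455 on the minus strand. The Nsdhl window is chrX:72918271-72918570 on the plus strand, that of Fasn chr11:120824498-120824797 on the minus strand and that of Elovl5 chr9:77917115-77917414 on the plus strand.
Hmgcs1: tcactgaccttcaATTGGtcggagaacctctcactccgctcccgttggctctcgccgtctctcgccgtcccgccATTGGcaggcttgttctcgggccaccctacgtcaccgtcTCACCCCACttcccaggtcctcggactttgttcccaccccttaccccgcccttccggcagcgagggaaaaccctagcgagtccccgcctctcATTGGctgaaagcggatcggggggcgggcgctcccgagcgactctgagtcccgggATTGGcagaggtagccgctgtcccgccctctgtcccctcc
Lss: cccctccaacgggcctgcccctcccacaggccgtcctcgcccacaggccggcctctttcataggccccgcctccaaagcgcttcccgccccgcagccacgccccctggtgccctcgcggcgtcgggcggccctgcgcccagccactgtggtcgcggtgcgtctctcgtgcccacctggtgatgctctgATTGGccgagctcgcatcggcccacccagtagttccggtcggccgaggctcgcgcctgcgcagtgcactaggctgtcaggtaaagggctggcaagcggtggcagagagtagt
Cyp51: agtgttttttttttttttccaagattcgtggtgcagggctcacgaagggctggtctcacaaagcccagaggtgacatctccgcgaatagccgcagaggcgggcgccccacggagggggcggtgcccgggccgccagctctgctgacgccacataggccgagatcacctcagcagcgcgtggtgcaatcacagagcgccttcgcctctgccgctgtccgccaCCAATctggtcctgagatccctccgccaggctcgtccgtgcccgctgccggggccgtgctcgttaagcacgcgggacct
Hsd17b7: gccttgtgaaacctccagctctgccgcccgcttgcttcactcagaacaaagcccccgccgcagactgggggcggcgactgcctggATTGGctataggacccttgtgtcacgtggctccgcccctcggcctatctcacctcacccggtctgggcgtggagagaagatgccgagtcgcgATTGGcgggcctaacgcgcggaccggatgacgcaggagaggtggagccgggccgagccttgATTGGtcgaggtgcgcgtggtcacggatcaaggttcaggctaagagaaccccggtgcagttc
Nsdhl: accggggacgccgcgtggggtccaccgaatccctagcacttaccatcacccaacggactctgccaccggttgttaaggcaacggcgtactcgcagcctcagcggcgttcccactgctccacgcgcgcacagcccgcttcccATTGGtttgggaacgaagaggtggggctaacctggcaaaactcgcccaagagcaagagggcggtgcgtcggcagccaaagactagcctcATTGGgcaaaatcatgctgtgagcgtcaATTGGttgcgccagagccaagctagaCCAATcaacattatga
Fasn: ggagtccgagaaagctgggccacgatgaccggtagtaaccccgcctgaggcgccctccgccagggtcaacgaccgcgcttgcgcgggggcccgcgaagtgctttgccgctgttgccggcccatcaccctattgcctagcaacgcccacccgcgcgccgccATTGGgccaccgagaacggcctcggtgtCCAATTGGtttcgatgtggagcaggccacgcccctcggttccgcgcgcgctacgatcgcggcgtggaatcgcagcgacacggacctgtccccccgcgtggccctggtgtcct
Elovl5: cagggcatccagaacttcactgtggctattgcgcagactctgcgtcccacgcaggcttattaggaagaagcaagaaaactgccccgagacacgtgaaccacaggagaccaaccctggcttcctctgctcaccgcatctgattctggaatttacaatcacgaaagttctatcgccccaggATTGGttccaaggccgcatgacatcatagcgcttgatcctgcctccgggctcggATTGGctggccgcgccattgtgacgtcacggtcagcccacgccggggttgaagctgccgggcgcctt

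The match to TCACNCCAC in the Hmgcs1 window lay at -137 to -129, with 0 at the annotated first base. Hmgcs1 was the only sterol member with it, 1 of the 14 that had a window (7.14%), against 1.44% of all 27025 genes with a window. None of the 7 fatty acid members and none of the 3 regulators with a window held this form. CCAAT stood in 13 of 14 sterol members (92.9%), 4 of 7 fatty acid members (57.1%) and 3 of 3 regulators, against 41.1% of all genes. Hmgcs1 and Nsdhl had 4 copies each, Hsd17b7 and Fasn had 3, Elovl5 had 2, and Lss and Cyp51 had 1. In Fasn the copies on the 2 strands overlap. GGGCGG, the GC box bound by SP1, was found in 13 of 14 sterol members, 3 of 7 fatty acid members and 3 of 3 regulators, against 38.2% of all genes. CACGTG, the E box form, was found in 2 of 14 sterol members, 1 of 7 fatty acid members and 1 of 3 regulators, against 8.09% of all genes. Both strands were searched for all 4 motifs. The median GC content was 60.3% in the sterol windows, 62.3% in the fatty acid windows and 68.7% in the regulators' windows, above 52.7% in all windows, and genes with several windows (Dhcr7, Pmvk, Me1 and Srebf1) had more chances of a match. A match describes the letters of these windows only.

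**Figure D1:**
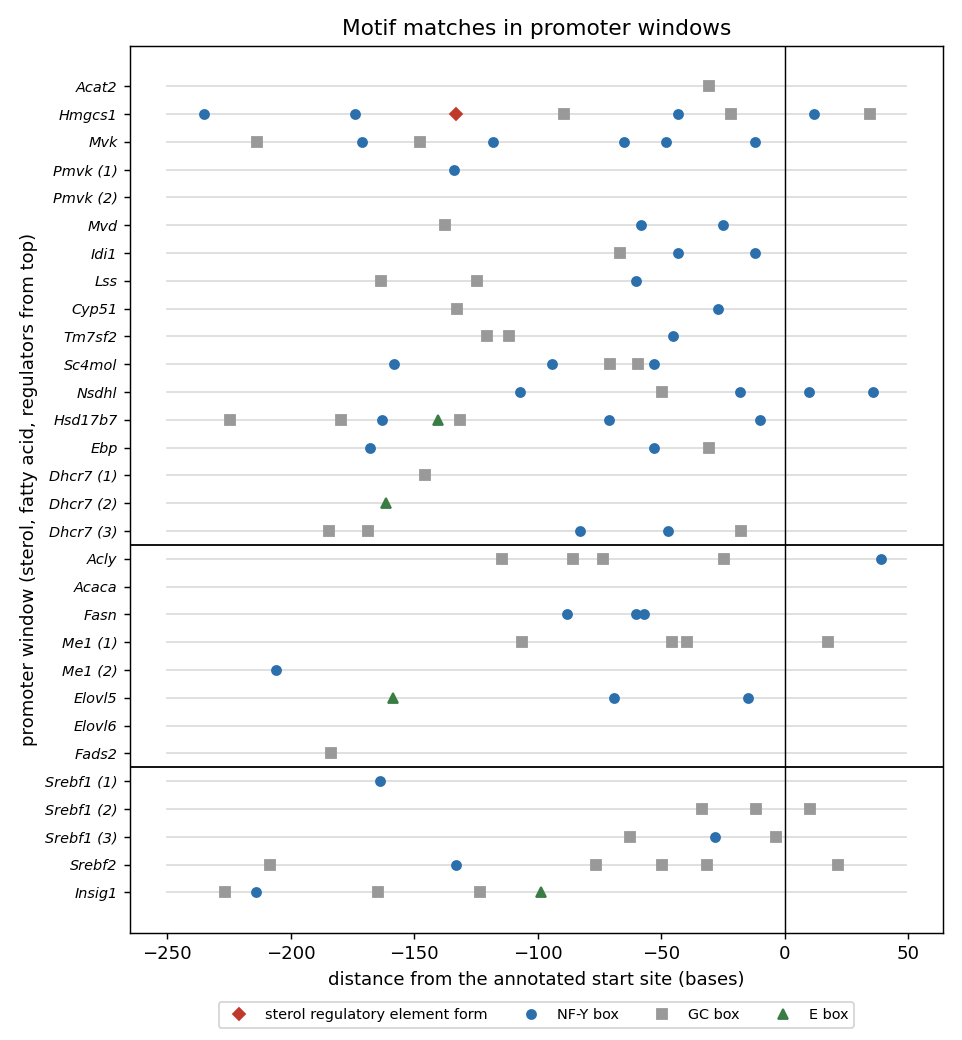
Positions of the motif matches in the promoter windows of the members, 1 row per window, as distance in bases from the annotated first base (x axis). The NF-Y box and GC box recur in most sterol rows, and the sterol regulatory element form appears once, in Hmgcs1.

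The libraries held 3125366 to 15557862 counted reads in KO and 1208896 to 5853454 in WT, a difference in depth between the genotypes (exact permutation test over 462 splits, two-sided, p = 0.026). The lowest count of any member in any library was 10 reads, for Fads2. Trex2 itself averaged 1.85 ± 0.909 normalized counts in KO and 1479.6 ± 446 in WT (SD, n = 6 and 5), and fell in KO (log2 fold change of -9.03, limma adjusted p = 5.50e-11). Normalized counts are counts divided by 1 size factor per library. Fold changes are KO relative to WT on the log2(normalized count + 1) scale, where the added 1 makes changes of low genes look smaller. Adjusted p-values are Benjamini-Hochberg values of limma over all 13215 genes. They weigh the difference between the genotypes against the spread between the animals of each genotype.

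Across the 31 members, the log2 fold change was positive (higher in KO skin) for 28 and negative for 3, against 51.0% of all tested genes with a positive log2 fold change. The median log2 fold change of the members was 0.70, and that of all genes was 0.01. No member passed the threshold of 0.05, where 0.00757% of all genes passed as higher and 0.00757% as lower. The lowest adjusted p among members was 0.108. At an unadjusted limma p below 0.05, 17 of 31 members were higher and 0 lower, against 12.9% and 11.5% of all genes. In no member did every KO library lie above every WT library, which was the case for 1.02% of all genes, and in none did every KO library lie below every WT library (1.29% of all genes). In whole skin, a higher level per cell and a larger share of cells that make the transcript cannot be told apart.

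Tests other than the main one gave up to 3 calls. DESeq2 on the recovered reads called Lss, Sqle and Hsd17b7 higher in KO (adjusted p = 0.0166, 0.0336 and 0.0377), 3 of 31 members against 3.02% of all genes with an adjusted p. Fads2 had no DESeq2 adjusted p and so could not be called by it. limma without WT replicate 4 called the same 3 members higher, against 3.50% of all genes. edgeR called 0 members, against 0.00757% of all genes higher. None of these tests called a member lower, against 2.64% of genes for DESeq2, 0.0227% for edgeR and 2.10% for limma without WT replicate 4. The count of 17 changed with depth as a covariate and with single libraries left out. With log10 depth as a covariate, 1 member, Lss, was higher at an unadjusted p below 0.05 (all genes 1.78%) and 1 member, Fads1, was lower (all genes 2.29%). Among the libraries of 3000000 to 8000000 reads 8 members were higher, all of the sterol branch and all among the 17 (all genes 4.18%), and Fads1 and Fads2 were lower (all genes 4.31%). Without KO replicates 9 and 12 together 5 of the 17 were below 0.05, namely Lss, Sqle, Hsd17b7, Dhcr7 and Srebf2 (all genes 6.54%). These libraries held the highest KO values of the sterol members, so leaving them out had to lower the sterol values. Without KO replicate 9 alone 11 of the 17 were below 0.05 (11.3%). The count was 12 without KO replicate 12 (all genes 8.24%), 8 without WT replicate 3 (9.63%), 9 without WT replicate 5 (11.1%) and 19 without WT replicate 4 (16.2%).

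**Figure D2:**
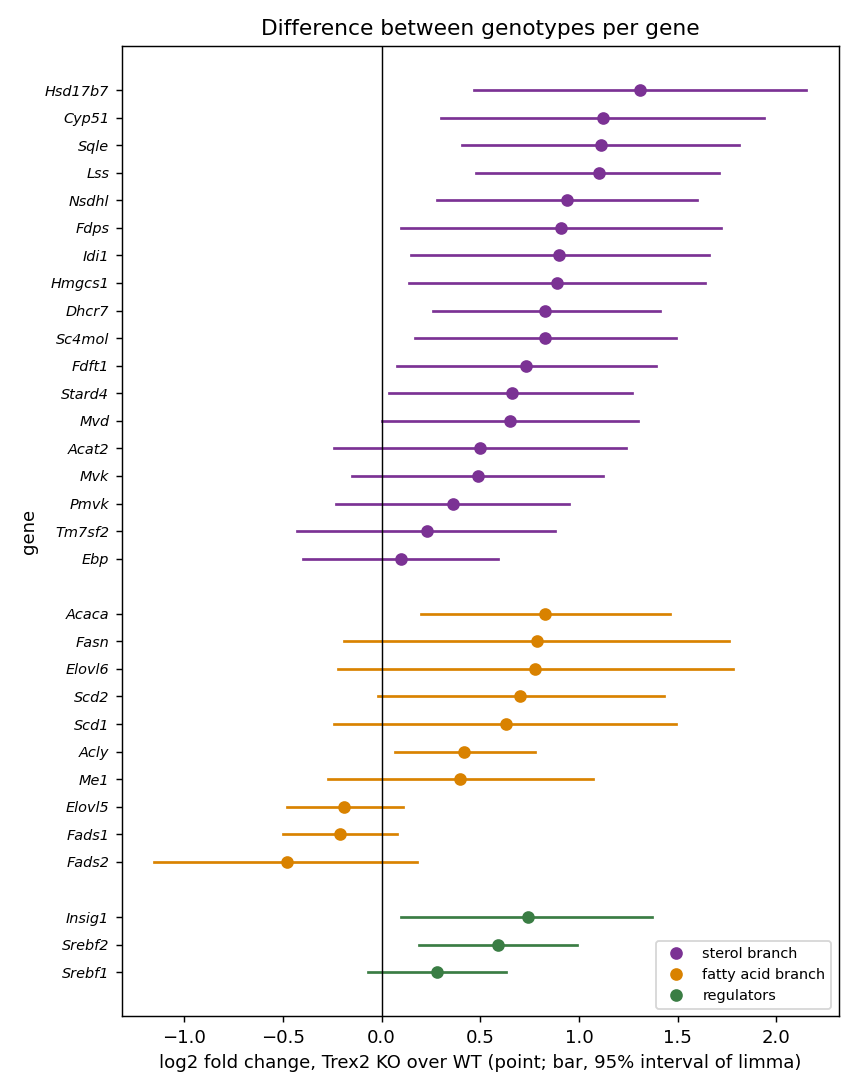
Log2 fold change of each member, KO relative to WT (x axis, log2 of normalized count + 1), with the 95% interval of the limma fit (bars) by branch. All 18 sterol members lie right of 0, while Elovl5, Fads1 and Fads2 of the fatty acid branch lie left of it with intervals that include 0.

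The sterol branch had a positive log2 fold change in 18 of 18 members, with a median of 0.83 and 13 members higher at an unadjusted p below 0.05, where 51.0% of all genes were positive and 12.9% were higher at that p. The count of 13 was 6 without WT replicate 3 or without WT replicate 5, 8 without KO replicate 9 or without KO replicate 12, and 4 without both KO replicates. Its first 7 genes form the mevalonate segment, with a median of 0.65 and 4 members higher at an unadjusted p below 0.05 (12.9% of all genes). Hmgcs1, the cytosolic HMG-CoA synthase whose promoter is shown above, averaged 1655 ± 844 normalized counts in KO and 875 ± 395 in WT, with a log2 fold change of 0.89. Idi1, isopentenyl diphosphate isomerase, averaged 909 ± 428 in KO and 475 ± 217 in WT, and Fdps, farnesyl diphosphate synthase, 1012 ± 515 in KO and 519.6 ± 241 in WT. The log2 fold changes of Idi1 and Fdps were 0.90 and 0.91. Values were smaller for Mvd at 0.65, Acat2 at 0.50, Mvk at 0.49 and Pmvk at 0.36, which encode mevalonate diphosphate decarboxylase, cytosolic acetoacetyl-CoA thiolase, mevalonate kinase and phosphomevalonate kinase. Stard4, a cytosolic sterol carrier, had a log2 fold change of 0.66.

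The 10 genes from squalene to cholesterol had a median of 0.89, and 8 of them were higher at an unadjusted p below 0.05 (12.9% of all genes). Lss encodes lanosterol synthase, which closes squalene epoxide into the first sterol. It had 503, 286, 625, 534, 287 and 865 normalized counts in KO replicates 7 to 12, against 279, 171, 320.2, 155 and 231 in WT replicates 2 to 6. KO replicates 8 and 11 lay below WT replicate 4 and above the other WT libraries, and the other 4 KO libraries lay above all WT libraries. The means were 517 ± 219 in KO and 231 ± 70.0 in WT, a log2 fold change of 1.10 (SE 0.29, limma adjusted p = 0.108).

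Sqle, squalene epoxidase, catalyses the oxygen-dependent step before Lss. It had 781, 558, 1089, 784, 422 and 1500.3 normalized counts in KO, against 452, 307, 683, 222 and 303 in WT. KO replicate 12 was highest and WT replicate 5 lowest, and KO replicates 8 and 11 lay below WT replicate 4. The log2 fold change of 1.11 had an SE of 0.33 (limma adjusted p = 0.108). Hsd17b7, the 3-ketosteroid reductase that acts during removal of the C4 methyl groups, had the highest log2 fold change of the set, 1.31 (SE 0.39, limma adjusted p = 0.108). Its values were 491, 337, 711, 620.4, 313 and 1343 in KO, against 241, 158, 536, 129.8 and 215 in WT. WT replicate 4 stood above the other WT libraries and within the KO range.

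Cyp51, the lanosterol 14-demethylase, had 1006, 632, 1470.1, 977, 499 and 1747 normalized counts in KO, against 700.5, 257, 843, 228 and 486 in WT. Its log2 fold change of 1.12 had an SE of 0.38 (limma adjusted p = 0.125), and KO replicates 8 and 11 lay within the WT range. Nsdhl, the C4 decarboxylating sterol dehydrogenase, had 147, 121, 269, 165, 89.0 and 288 in KO, against 102, 54.2, 140.1, 77.2 and 76.9 in WT. Its log2 fold change of 0.94 had an SE of 0.31 (limma adjusted p = 0.117). Here too KO replicate 12 was highest, and KO replicates 8 and 11 lay within the WT range. Dhcr7 encodes the reductase of the last step, from 7-dehydrocholesterol to cholesterol, and 7-dehydrocholesterol is also the skin's precursor of vitamin D. It had 272, 259.9, 368, 301, 196 and 427 in KO, against 263, 90.3, 245, 139.8 and 149 in WT, with a log2 fold change of 0.83 (SE 0.27, limma adjusted p = 0.115). WT replicates 2 and 4 lay inside the KO range and the other 3 WT libraries lay below it.

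Fdft1, squalene synthase, averaged 675 ± 249.8 normalized counts in KO and 413 ± 179.8 in WT, with a log2 fold change of 0.73. Sc4mol, the C4 methyl sterol oxidase, averaged 871 ± 337 in KO and 496 ± 214 in WT, with a log2 fold change of 0.83. Both differences had an unadjusted p below 0.05, at 0.0299 and 0.0174, with limma adjusted p = 0.167 and 0.142. Tm7sf2 and Ebp had the smallest differences of the sterol branch. Tm7sf2, a sterol C14 reductase, had 78.1, 50.6, 124, 64.3, 49.3 and 91.3 in KO, against 111, 76.7, 65.6, 33.6 and 47.1 in WT, a log2 fold change of 0.23 (SE 0.31, limma adjusted p = 0.663). Ebp, the sterol isomerase, had 338, 304, 579, 270.2, 202 and 396 in KO, against 388, 316, 330.2, 218 and 317 in WT, a log2 fold change of 0.10 (SE 0.23, limma adjusted p = 0.815). In both genes the KO and WT libraries overlapped, and without KO replicates 9 and 12 the values turned negative, to -0.05 for Tm7sf2 and -0.17 for Ebp. The 95% intervals ran from -0.43 to 0.88 for Tm7sf2 and from -0.40 to 0.59 for Ebp. Some exon bases of 8 members also belong to an annotated antisense gene, from 30 of 3848 bases in Me1 to 774 of 4227 in Fdft1, and reads over those bases cannot be assigned to a strand here. The others are Hmgcs1, Idi1, Lss, Cyp51, Elovl6 and Srebf1, and 4 members (Fdps, Tm7sf2, Scd2 and Srebf1) share bases with a gene on the same strand.

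**Figure D3:**
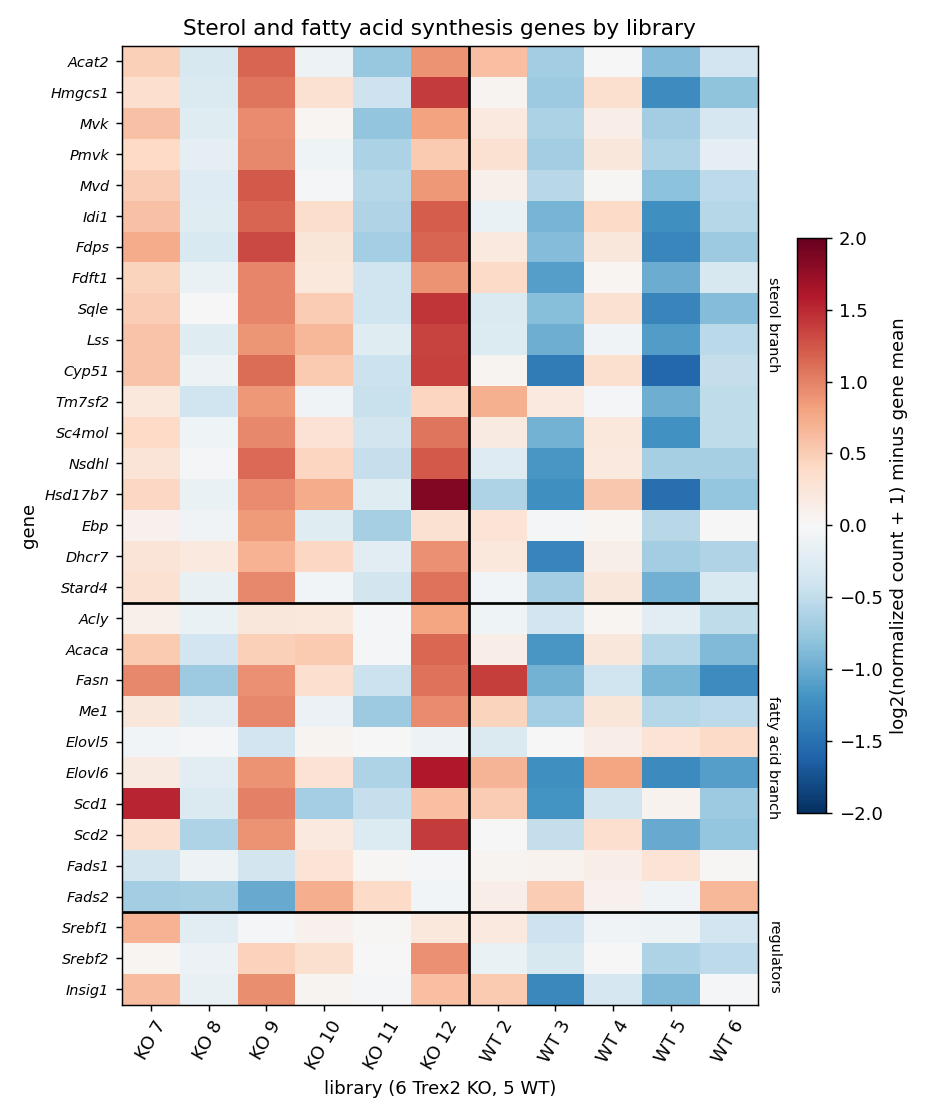
Log2(normalized count + 1) of each member (rows, by branch) in each library (columns, KO left of WT), centred on the gene's mean over the 11 libraries (colour, log2 units). The highest column of each sterol row is KO replicate 9 or 12, and the lowest is WT replicate 3 or 5 in 16 of 18. The rows of Elovl5, Fads1 and Fads2 have another pattern.

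The fatty acid branch was less uniform, with a positive log2 fold change in 7 of 10 members, a median of 0.52 and 2 members higher at an unadjusted p below 0.05, a share near the 12.9% of all genes. That count was 5 without WT replicate 2 and with array weights, 4 without WT replicate 4 or without KO replicate 8, 1 without WT replicate 3 or without WT replicate 6, and 0 without KO replicates 9 and 12. The 4 synthesis genes had a median of 0.61. Acaca encodes acetyl-CoA carboxylase 1, the committed step that makes malonyl-CoA. It had 481, 255, 467, 482, 325 and 739.9 normalized counts in KO, against 368, 149, 389, 224 and 180.4 in WT, a log2 fold change of 0.83 (SE 0.29, limma adjusted p = 0.132). KO replicates 8 and 11 lay within the WT range. Acly, ATP citrate lyase, supplies cytosolic acetyl-CoA to both branches. It had 1171, 994, 1279.6, 1262, 1081 and 1887 in KO, against 1033, 839, 1125, 933 and 772 in WT, a log2 fold change of 0.42 (SE 0.16, limma adjusted p = 0.149). KO replicate 12 stood apart from the other KO libraries, and KO replicates 8 and 11 lay below WT replicate 4.

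Fasn, fatty acid synthase, had its highest value in a WT library. It had 1999, 619.6, 1941, 1305, 766 and 2187 normalized counts in KO, against 2679, 532, 777, 543 and 431 in WT. WT replicate 2 lay above all KO libraries. WT replicate 4 lay below all KO libraries but replicates 8 and 11, and WT replicates 3, 5 and 6 lay below all KO libraries. The log2 fold change of 0.79 had an SE of 0.45 (limma adjusted p = 0.294), and without WT replicate 2 it was 1.24. Me1, malic enzyme 1, supplies NADPH for lipid synthesis. It had 576, 427, 957, 454, 297 and 951 in KO, against 669.6, 307, 580.4, 331 and 340.5 in WT, a log2 fold change of 0.40 (SE 0.31, limma adjusted p = 0.432). The KO libraries extended both above and below all WT libraries.

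The stearoyl-CoA desaturases Scd1 and Scd2 insert the first double bond into saturated fatty acids. Scd2 had 1692, 876, 2512, 1536, 1115 and 3539 normalized counts in KO, against 1354, 970.2, 1695, 668 and 785 in WT, a log2 fold change of 0.70 (SE 0.34, limma adjusted p = 0.215). Scd1 had 9554, 2741, 6691, 2089, 2424 and 5044 in KO, against 4735, 1453, 2591, 3502 and 2023 in WT, a log2 fold change of 0.63 (SE 0.40, limma adjusted p = 0.344). KO replicate 7 was the highest library for Scd1, whereas KO replicate 12 was the highest for Scd2. Without KO replicate 7 the log2 fold change of Scd1 was 0.38. The 2 genes are close paralogs, and how far their reads were shared in counting was not measured here. Elovl6, which extends palmitate, averaged 204 ± 123 in KO and 129 ± 95 in WT, with a log2 fold change of 0.78.

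Elovl5, Fads1 and Fads2 make long polyunsaturated fatty acids by elongation and by delta-5 and delta-6 desaturation, and were the members with negative log2 fold changes. These 3 were set apart after their values were seen, so their median of -0.21, and that of 0.70 for the other 7 fatty acid members, are descriptions. Elovl5 had 264, 266, 210.4, 285, 273 and 255 normalized counts in KO, against 223, 275, 301, 329 and 358 in WT, a log2 fold change of -0.19 (SE 0.14, limma adjusted p = 0.405). KO replicate 9 was lowest and WT replicate 6 highest. Fads1 averaged 220.1 ± 39.2 in KO and 251 ± 18.6 in WT, and Fads2 29.6 ± 14.7 in KO and 38.6 ± 8.61 in WT. Their log2 fold changes were -0.21 and -0.48, with limma adjusted p = 0.351 and 0.341. None of the 3 passed the test, and the lowest library was KO replicate 9 in each.

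Of the regulators, Srebf2 had the clearest separation. It had 704, 626, 936, 848, 679.5 and 1289.7 normalized counts in KO, against 621, 546, 676, 446 and 472 in WT, a log2 fold change of 0.59 (SE 0.18, limma adjusted p = 0.112). All KO libraries but replicate 8 lay above every WT library. Insig1, both a brake on SREBP release and an SREBP target, had 408, 239.8, 506, 275, 258 and 402 in KO, against 381, 108, 210.1, 143 and 262 in WT, a log2 fold change of 0.74 (SE 0.30, limma adjusted p = 0.161). WT replicate 2 lay above 3 of the KO libraries. Srebf1 had 864, 460.2, 524, 567, 543 and 617 in KO, against 613, 402, 510.4, 497 and 411 in WT, a log2 fold change of 0.28 (SE 0.16, limma adjusted p = 0.302). Its highest library was KO replicate 7, as for Scd1, and without that library the log2 fold change was 0.17. Counts do not separate the Srebf1 isoforms.

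**Figure D4:**
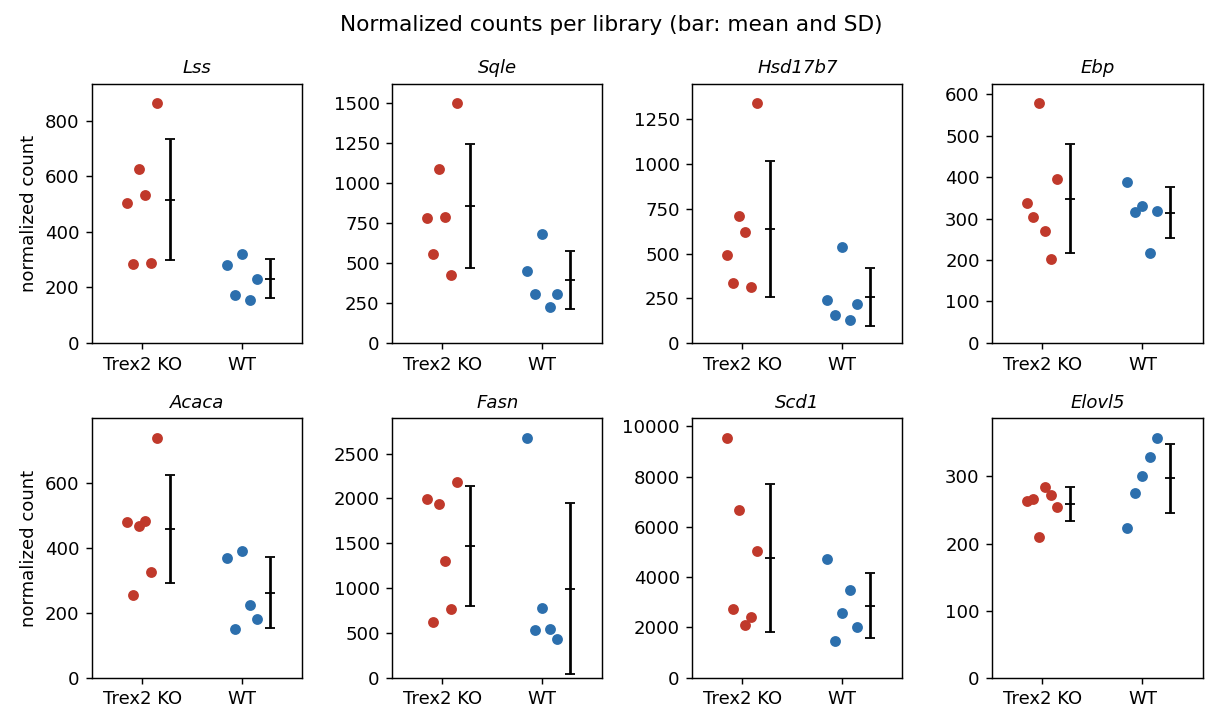
Normalized counts of 4 sterol members (Lss, Sqle, Hsd17b7 and Ebp) and 4 fatty acid members (Acaca, Fasn, Scd1 and Elovl5) in each library (points, KO left of WT) with the group mean and SD (bars), each panel with its own y axis starting at 0. The KO means lie above WT in every panel but that of Elovl5, the groups overlap in every panel, and WT replicate 2 is the highest Fasn point.

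The sterol members had their highest and lowest values in the same animals. In 18 of 18 the highest library was KO replicate 9 or 12, and in 16 of 18 the lowest was WT replicate 3 or 5. KO replicate 11 was the lowest KO library in 17 of 18, and WT replicate 2 or 4 the highest WT library in 18 of 18. How often these libraries were highest or lowest over all genes was not counted. Differentiated keratinocyte markers also scored highest in KO replicates 9 and 12 (2.00 and 1.97) and lowest in WT replicates 5 and 3 (-2.35 and -1.57). In the fatty acid branch the highest library was KO replicate 9 or 12 in 5 of 10 members and the lowest WT replicate 3 or 5 in 4 of 10. The sterol score, the mean of the centred log2 values over the branch, was 0.42, -0.16, 1.01, 0.23, -0.48 and 1.05 in KO replicates 7 to 12, against 0.09, -0.81, 0.18, -1.02 and -0.51 in WT replicates 2 to 6. The fatty acid score was 0.27, -0.34, 0.36, 0.18, -0.21 and 0.74 in KO, against 0.30, -0.55, 0.12, -0.40 and -0.47 in WT. KO replicates 8 and 11 lay within the WT range of the sterol score, and 4 of 6 KO libraries lay within that of the fatty acid score.

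The median log2 fold change of the sterol branch exceeded that of the fatty acid branch by 0.31. Per library, the sterol minus fatty acid score was 0.15, 0.17, 0.65, 0.05, -0.26 and 0.31 in KO, against -0.21, -0.26, 0.05, -0.62 and -0.04 in WT. KO replicate 11 lay within the WT range and KO replicate 10 was level with WT replicate 4. The mean difference of scores was 0.18 ± 0.30 in KO and -0.21 ± 0.26 in WT (SD, n = 6 and 5), given here without a test. Without KO replicates 9 and 12 the branch medians were 0.48 and 0.28 for sterol and fatty acid genes, and their difference was 0.20. These libraries had the highest scores of both branches, so leaving them out favours lower medians. WT replicates 3 and 5 were not left out together. Without WT replicate 5 the difference was 0.18. Among libraries of 3000000 to 8000000 reads the medians were 0.77 and 0.46. Leaving out KO replicates 9 and 12 gave log2 fold changes of 0.91 for Hsd17b7, 0.79 for Lss, 0.76 for Sqle and 0.75 for Cyp51, and of 0.10 for Acat2, 0.07 for Pmvk and 0.01 for Me1.

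Markers of the cell types of skin were read beside these genes, and limma called 0 genes of any marker list at the adjusted threshold. All 8 basal keratinocyte markers had a positive log2 fold change, with a median of 0.94, and 7 were higher at an unadjusted p below 0.05 (12.9% of all genes); DESeq2 called 4 of them higher (3.02% of all genes). Their summed level was 59035 to 180445 normalized counts in KO and 37534 to 92777 in WT, and their score was highest in KO replicates 12 and 9 (1.33 and 0.94) and lowest in WT replicate 5 (-1.03). All 13 markers of differentiated keratinocytes were positive as well, with a median of 1.70 and summed levels of 9511 to 46849.9 in KO and 4964 to 22969 in WT. Of these 9 were higher at an unadjusted p below 0.05 (12.9% of all genes), and DESeq2 called 2 higher (3.02% of all genes). The differentiated score was highest in KO replicates 9 and 12 (2.00 and 1.97) and lowest in WT replicates 5 and 3 (-2.35 and -1.57). Of 8 sebaceous gland markers 5 were tested, all positive with a median of 1.33, and 0 were higher at an unadjusted p below 0.05 (12.9% of all genes). Awat1 and Far2 were at 0 in WT replicates 2 and 3 and highest in WT replicate 4 (45.6 and 61.2). Summed levels over the sebaceous list were 72.3 to 471 in KO and 56.5 to 633 in WT. Adipocyte markers were negative in 9 of 12, with a median of -0.26 and summed levels of 9620.1 to 16721 in KO and 11795 to 21835 in WT. Of these 12, 3 were lower at an unadjusted p below 0.05 (11.5% of all genes), and DESeq2 called 0 lower (2.64% of all genes). Neutrophil markers were negative in 8 of 8, with a median of -1.09. At an unadjusted p below 0.05, 7 of them were lower (11.5% of all genes), and DESeq2 called 3 lower (2.64% of all genes). Their summed levels were 16599 to 71346 in KO and 43073 to 97400.2 in WT. S100a8 and S100a9 made most of that sum, with means of 15342 and 17986 in KO and 31143 and 35346 in WT. Macrophage markers were negative in 7 of 9, with a median of -0.59, and 5 were lower at an unadjusted p below 0.05 (11.5% of all genes). DESeq2 called 1 macrophage marker lower (2.64% of all genes). Summed levels of the macrophage list were 9450.0 to 16289 in KO and 14781 to 22271 in WT. Fibroblast markers were negative in 6 of 7, with a median of -0.29 and summed levels of 44312 to 68449 in KO and 49025 to 69278 in WT. Of 11 hair follicle markers 5 were tested, all positive with a median of 0.62, and 3 were higher at an unadjusted p below 0.05 (12.9% of all genes). Summed levels of the hair follicle list were 6303 to 20854 in KO and 3312 to 12166 in WT. Krt17 made most of that sum, with 5129 to 20246 in KO and 2676 to 11159 in WT. Muscle markers were negative in 5 of 7, with a median of -0.25 and summed levels of 35548 to 80218 in KO and 45641 to 77214 in WT. No gene of these lists was at 0 in every library. The adipocyte score was a covariate in an alternative limma fit, with branch medians of 0.96 (sterol) and 0.68 (fatty acid). In that fit Elovl5, Fads1 and Fads2 had log2 fold changes of -0.35, -0.37 and -0.93 (limma adjusted p = 0.268 for each). The part of the other lists in the sterol and fatty acid values was not tested.

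**Figure D5:**
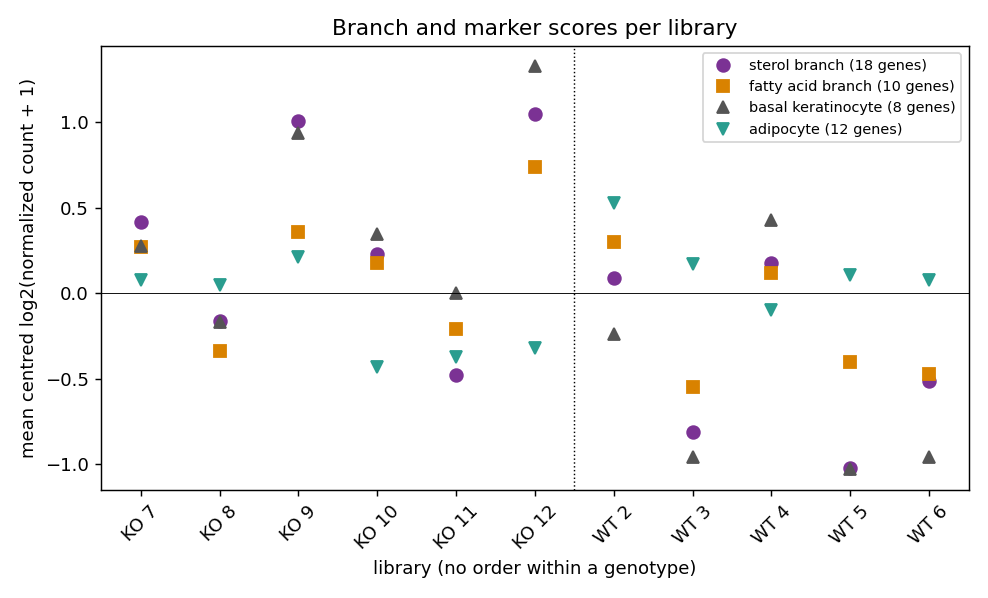
Scores of the sterol branch, the fatty acid branch and the basal keratinocyte and adipocyte markers in each library (y axis, mean centred log2 value), KO replicates left of WT replicates. The sterol and basal keratinocyte scores are both high in KO replicates 9 and 12 and low in WT replicates 3 and 5, while in WT replicate 6 the basal keratinocyte score (-0.96) is lower than the sterol score (-0.51).

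Per kilobase of exon, the members spanned a wide range of levels. The length was that of all annotated exons of a gene merged, and the order of the members depends on it. On the scale of normalized counts per kb of annotated exonic length, Scd1 was highest, with a mean level of 972 in KO and 585 in WT. Hmgcs1 had 360.2 in KO and 190.4 in WT, and Scd2 had 344 in KO and 200.3 in WT. Those 2 genes changed order between the genotypes and lay within each other's spread, with coefficients of variation across KO libraries of 51.0% for Hmgcs1 and 52.7% for Scd2. Idi1 was the fourth highest in KO, with 259 in KO and 136 in WT, and Acly had 242 in KO and 178 in WT. Fdps and Cyp51 were nearly level with Acly in KO, at 241 and 239, but lower in WT, at 123 and 114. Fads2 was lowest, at 8.98 in KO and 11.7 in WT.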

How the data were processed

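RNA-seq of back skin gave 11 libraries. The submitters' processing notes name the build GRCm38, DESeq2 1.8.1, featureCounts 1.4.6 and TopHat2 2.0.8, without their order. The strand setting was not given in the sources used here. The deposited values are a signal, counts divided by 1 size factor per library by the authors, and 100% of values above 0 were whole reads (tolerance 0.01 of a read). Columns were matched to samples by replicate number.

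Genotypes were compared two-sided in R 4.3.3 with limma 3.58.1 (moderated, with a variance trend) on log2(deposited value + 1) of the 13215 genes with a mean of at least 10, adjusted by Benjamini-Hochberg over those genes at 0.05. Branches are described by counts and medians, with no set test. The members and lists were chosen with earlier results of these data known. Values in every library are given for the members of smallest p (6 sterol, 4 fatty acid), largest p (2 per branch) and the 3 regulators, and Scd1 was added after its values were seen. Some genes of the other pathway lists are not reported here by name. Gene lengths and overlaps come from GENCODE M21 on GRCm38. Depth was 1208896 to 15557862 reads, and a floor of 3 reads is 1.041 to 13.538 normalized counts, which covers counting error only. All pairs of libraries differed by more than sampling noise (chi-square over its degrees of freedom at least 4.48).

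Results were recomputed with TMM and upper quartile scaling, pseudocounts of 0.5 and 5, a filter at 50 or none, array weights, depth and adipocyte covariates, edgeR 4.0.16 and DESeq2 1.42.0 on recovered reads, thinned reads, libraries of 3000000 to 8000000 reads, and leaving out libraries. The count of members at an unadjusted p below 0.05 was added after seeing the data.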

Additional observations from a re-analysis of the deposited data

Results flagged for a closer look

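Among 70 groups of samples examined, 3 had a library far from the others, where chance flags about 1 in 20. Acly was 1887 normalized counts in KO replicate 12, while the other KO libraries lay between 994 and 1279.6, a gap of 0.68 of the range. Hsd17b7 was 536 in WT replicate 4, while the other WT libraries lay between 129.8 and 241, a gap of 0.73 of the range. Fasn was 2679 in WT replicate 2, while the other WT libraries lay between 431 and 777, a gap of 0.85 of the range.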

How the results depend on the processing

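The branch medians kept their sign under every alternative run. Leaving out KO replicates 9 and 12 removed the highest KO values of the sterol members. Members called higher in KO numbered 0 with limma and edgeR, 3 with DESeq2, and 0 to 3 when each library was left out (3 without WT replicate 4). Members called lower numbered 0 throughout, and 0 to 0 over the left-out libraries. Members at an unadjusted p below 0.05 and higher in KO, 17 at first, numbered 1 with the depth covariate, 8 in the libraries of 3000000 to 8000000 reads, 5 without KO replicates 9 and 12, and 8 to 21 when each library was left out. The sterol median ranged from 0.66 to 0.99, the fatty acid median from 0.40 to 0.68 and their difference from 0.18 to 0.42 over left-out libraries. With array weights the fatty acid median was 0.36 and the difference 0.49, and with the filter at 50 the difference was 0.21. With the depth covariate the medians were 0.62 and 0.29, and with the adipocyte covariate 0.96 and 0.68. Ebp, which ran from -0.07 to 0.24 over left-out libraries, turned to -0.17 without KO replicates 9 and 12, -0.07 without KO replicate 9 and -0.03 without WT replicate 5, and Tm7sf2 to -0.05 without KO replicates 9 and 12; the cause was not tested. Over 25 alternatives, 764 of 774 single-gene values kept direction and side of the threshold, 4 reversed and 6 passed it. TMM and upper quartile scaling moved the median of all genes by 0.034 and -0.04. No paired analysis was possible because the genotypes share no replicate number. Depth was lower in WT, and genotype and depth cannot be fully told apart.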

Other observations

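Genes of the same pathways outside the 31 members were also read. Of 13 other sterol genes 10 had a positive log2 fold change, with a median of 0.19, and 5 were higher and 2 lower at an unadjusted p below 0.05, against 12.9% and 11.5% of all genes. Scap, the SREBP escort protein, averaged 633 ± 136 in KO and 402 ± 68.0 in WT, with a log2 fold change of 0.64. Its limma adjusted p of 0.108 missed the threshold, and no gene of the 13 passed it, while DESeq2 called 4 of them higher, against 3.02% of all genes with an adjusted p.

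The LXR group, which responds to sterol excess, was positive in 1 of 7 genes (51.0% of all genes), with a median of -0.14. At an unadjusted p below 0.05, 0 were higher and 1, Nr1h3, was lower, against 12.9% and 11.5% of all genes. Nr1h3, which encodes LXR alpha, averaged 113 ± 46.6 in KO and 179 ± 30.0 in WT, with a log2 fold change of -0.75 (limma adjusted p = 0.136). Other fatty acid genes were positive in 21 of 29 tested (51.0% of all genes), with a median of 0.12. Of these, 4 were higher and 2 lower at an unadjusted p below 0.05, against 12.9% and 11.5% of all genes. Elovl4, which makes the very long chain fatty acids of barrier ceramides, averaged 3075 ± 1495 in KO and 1449 ± 896 in WT, with a log2 fold change of 1.16 (limma adjusted p = 0.120). Genes of fatty acid oxidation were positive in 10 of 14 tested (51.0% of all genes), with a median of 0.13. Of these, 3 were higher and 1 lower at an unadjusted p below 0.05 (12.9% and 11.5% of all genes). Hadhb, of the mitochondrial trifunctional protein, averaged 369 ± 44 in KO and 282 ± 35.1 in WT, with a log2 fold change of 0.39 (limma adjusted p = 0.116).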
